A study of Mus musculus with 7 samples.

Results

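Ala-AGC is the largest of the 3 alanine tRNA pools in the data, and its level in oligodendrocytes was close to that in their progenitors (a log2 change of -0.07) while isodecoders that make it up moved in opposite directions. Isodecoders are tRNAs that share an anticodon and differ in the rest of the body. The members described here are the anticodon row Ala-AGC and every isodecoder row carrying that name, which gave 9 isodecoders of the 217 listed, numbered 1 to 8 and 10. They stand for 13 genes. The pool was chosen by the pattern in oligodendrocytes against progenitors (a steady total with members that rise and fall), so all values of that comparison are a description of these libraries and carry no test for the members. All 9 members passed the filter on low values, a mean of at least 1 RPM, which 192 of the 217 isodecoders passed. RPM relate the reads of a tRNA to the tRNA reads of its library, mitochondrial ones included, scaled alike in all libraries.

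The measurements were made by QuantM-seq, in which a double-stranded adapter is ligated to the ends of deacylated mature tRNAs before reverse transcription. Oligodendrocyte progenitor cells (OPC, n = 3) of strain 129S/SvEv had been derived from epiblast stem cells of male embryos and were kept in bFGF and PDGFA. Oligodendrocytes (OL, n = 2) were differentiated from OPCs with the thyroid hormone T3, noggin, IGF-1, cyclic AMP and NT3, and astrocytes (Astro, n = 2) with BMP4, CNTF, Hb-EGF and bFGF. The OLs had been made from some of the OPC replicates, and nothing matches the libraries beyond their numbers. All cells therefore share a strain and a stem cell origin in culture, an OL dish can still hold progenitors, and the tables hold tRNAs only, so the labelled cell types could not be checked against marker mRNAs. The deposited RPM correspond to totals of 1339021 to 2627351 tRNA reads per library, of which 83977 to 163350 were counted for Ala-AGC. At that depth 3 reads correspond to 1.14 to 2.24 RPM, and the 95% Wilson interval of a member's share of the pool was at most 0.335 percentage points to either side. These intervals cover counting error only. In bulk RNA, fewer cells of a type and less tRNA per cell cannot be told apart.

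Alanine tRNA carries alanine to the ribosome and is recognised by its synthetase through the acceptor stem rather than the anticodon. In AGC tRNAs the first anticodon base, an adenosine, is deaminated to inosine by the ADAT2/ADAT3 enzyme, and inosine can pair with U, C or A, so that this pool reads the alanine codons GCU, GCC and GCA. Mammalian genomes hold several gene copies of such a tRNA, each transcribed by RNA polymerase III from a promoter inside the gene. A T of the tables is printed as U in tRNA names, and names end in the isodecoder number.

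The sequences of a member that was higher in OLs and of a member that was lower show how far bodies within this pool differ. They were taken from worked examples in the study's own analysis code, where comments tie them to isodecoders 7 and 1, and the tie rests on those comments. Both are read 5′ to 3′ without the terminal CCA, and the capitals mark the anticodon.
Ala-AGC-1: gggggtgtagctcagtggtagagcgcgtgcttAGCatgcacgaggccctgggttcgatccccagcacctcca
Ala-AGC-7: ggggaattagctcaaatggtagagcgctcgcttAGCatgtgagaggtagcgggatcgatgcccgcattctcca
The former has 72 nucleotides and the latter 73, with the anticodon at positions 33 to 35 and 34 to 36 counted from the 5′ end. In a global alignment of 74 columns 55 bases were identical (74.3%), 16 differed and 3 were gaps. The GC content was 63.9% for Ala-AGC-1 and 54.8% for Ala-AGC-7. No sequence of the other 7 members was used. The authors' limit on mapping quality drops reads that match near-identical members equally well, so the split between such members is uncertain.

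RefSeq on GRCm38 (mm10, the build from which the study's tRNA set was made) lists 13 tRNA genes with this anticodon, 5 of them 72 nucleotides long and 8 of them 73. Of these 9 lie on chromosome 13. A first group of 4 genes of 72 nucleotides starts at 21222586, 21234045, 21242570 and 21259768, and a group of 5 genes of 73 nucleotides starts at 23285649, 23299061, 23400795, 23412941 and 23431412. Single genes were found on chromosome 3 from 19628995 to 19629067, on chromosome 4 from 132516008 to 132516079, on chromosome 5 from 30888515 to 30888587, and on chromosome 19 from 3576263 to 3576335. In the GENCODE annotation 11 are intergenic, and 2 of the chromosome 13 genes (23285649 to 23285721 and 23299061 to 23299133) lie in introns of the long noncoding RNA 4930557F10Rik. Genes and isodecoder numbers are not paired in the tables. Of the 9 isodecoders 6 stand for 1 gene, 2 (Ala-AGC-2 and Ala-AGC-4) for 2 genes and Ala-AGC-5 for 3 genes.

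The level of the whole pool was compared first. Ala-AGC was 62715, 68618 and 65035 RPM in OPC replicates 1 to 3, 61033 and 63542 RPM in OL replicates 1 and 2, and 57574 and 62173 RPM in Astro replicates 1 and 2. The OL libraries overlapped with the OPC libraries, while both astrocyte libraries lay below all OPC libraries. OPCs averaged 65456 ± 2974 RPM (SD, n = 3), OLs 62288 ± 1774 RPM (SD, n = 2) and astrocytes 59873 ± 3252 RPM (SD, n = 2). The log2 change on the log2(RPM + 1) scale was -0.07 (SE 0.055) in OLs against OPCs, which ranked 40 of 52 anticodon pools by absolute size, and -0.19 relative to the median of all pools, which was 0.12. It was -0.13 in astrocytes against OPCs (SE 0.070, limma adjusted p 0.446) and 0.06 in OLs against astrocytes (SE 0.069). No pool of the 52 passed a limma adjusted p of 0.01 in any of the 3 comparisons, so the percentage called among pools was 0 each time.

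Ala-AGC was also set against the other alanine pools, and was the largest of the 3 in every library. Its part of alanine tRNA was 73.8% ± 1.35 for OPCs (SD, n = 3), 73.1% ± 0.284 for OLs (SD, n = 2) and 74.3% ± 0.0533 for astrocytes (SD, n = 2), with Ala-UGC at 21.4% to 22.2% and Ala-CGC at 4.32% to 4.77% on average. OLs differed from OPCs by -0.699 points (two-sided exact permutation p 0.5). Astrocytes differed from OPCs by 0.519 points (two-sided exact permutation p 0.9) and OLs from astrocytes by -1.22 points (two-sided exact permutation p 0.33). The Benjamini-Hochberg values over these 3 exact permutation tests were 0.75, 0.9 and 0.75. The smallest p these group sizes allow is 0.1 for the comparisons with OPCs and 0.33 for the other. None of the 3 tests could therefore have passed the threshold of the limma fits, whatever the data. The steady pool in OLs against OPCs was also what the pool was chosen by. Nothing is read from these p-values, and they do not show that the part of alanine tRNA is steady.

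The genes of this pool are all 72 or 73 nucleotides long, so that length hardly enters the RPM of its members. Whether bodies are ligated, reverse transcribed and mapped equally well was not tested, so an order of members is one of deposited RPM. For most alanine tRNAs the study reported a sequencing signature in the D-loop that was weaker in OLs than in OPCs and astrocytes. Whether it bears on the RPM of members was not tested, so changes between cell types are likewise changes of deposited RPM. Ala-AGC-4 led in every library with a mean of 27296 RPM over all 7, followed by Ala-AGC-5 with 10271, Ala-AGC-2 with 7737, Ala-AGC-3 with 7681 and Ala-AGC-6 with 7098. This order pools groups that differ, and Ala-AGC-5 was the 2nd highest member in every OPC and astrocyte library but the 5th in both OL libraries. The spread of Ala-AGC-2 over libraries (6288 to 8593 RPM) covers the whole range of Ala-AGC-3 (6918 to 8209 RPM), so the order of these neighbours is not set. Ala-AGC-7 averaged 2539 RPM and Ala-AGC-1 322 RPM. Ala-AGC-10 and Ala-AGC-8 were near the limit of detection at 8.31 and 2.13 RPM, with 8 to 29 and 1 to 7 reads per library. Divided by the number of genes, the means were 13648 RPM per gene for Ala-AGC-4, 3869 for Ala-AGC-2 and 3424 for Ala-AGC-5. The single-gene members Ala-AGC-3, Ala-AGC-6 and Ala-AGC-7 stood at 7681, 7098 and 2539 RPM.

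**Figure D1:**
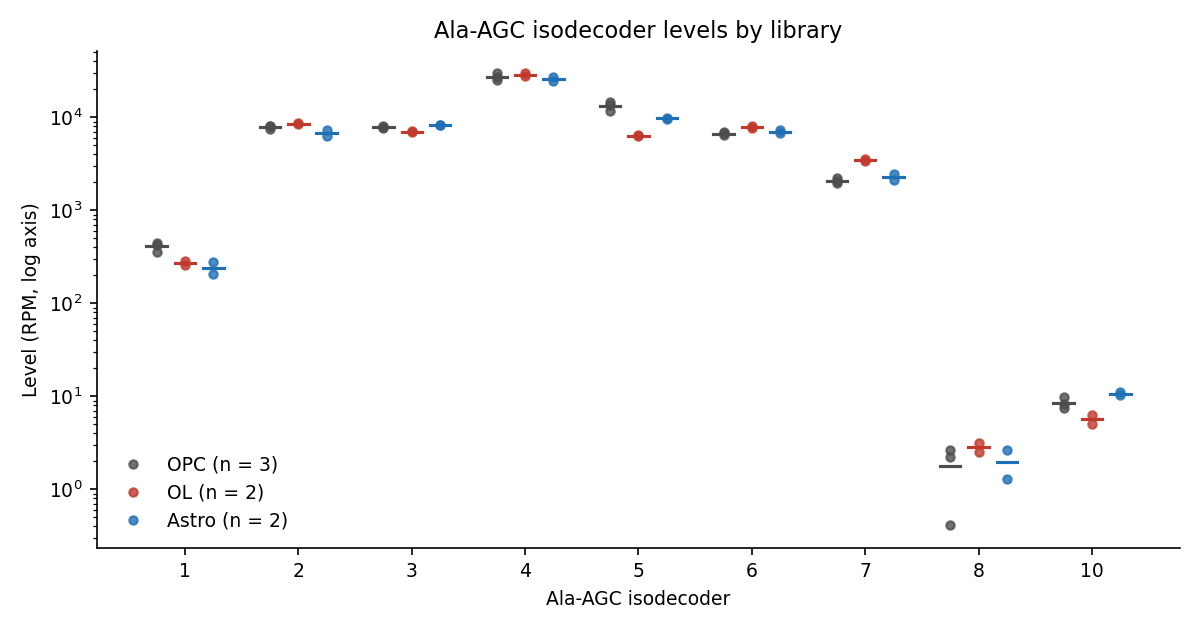
Level of each Ala-AGC isodecoder in RPM on a log axis, with 1 point per library and a bar at the mean of OPCs (n = 3), OLs (n = 2) and astrocytes (n = 2). Ala-AGC-5 stands at 6275 and 6415 RPM in OLs, below all other libraries, and Ala-AGC-7 at 3348 and 3571 RPM, above all other libraries.

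OLs were compared with OPCs to ask how the members of the pool change as progenitors differentiate. Ala-AGC-5, the second most abundant member in OPCs, fell to less than its level in any OPC library, while Ala-AGC-7, a minor member, was higher in OLs. Of the 9 members 4 were lower in both OL libraries than in all OPC libraries (Ala-AGC-1, 3, 5 and 10), 3 were higher (Ala-AGC-2, 6 and 7) and 2 overlapped (Ala-AGC-4 and 8). That makes 7 of 9 without overlap, where 53.1% of the 192 isodecoders tested had none. By the limma threshold 2 of 9 passed, 1 higher (Ala-AGC-7) and 1 lower (Ala-AGC-5), against 5.73% of all isodecoders. Without OPC replicate 1 or OPC replicate 2 the count was 1, and without either OL library it was 0. Because this comparison chose the pool, nothing is read from these counts. The median log2 change of the members was 0.08, beside 0.09 for all isodecoders, and their median absolute change was 0.52, beside 0.29. That 0.52 is the absolute change of Ala-AGC-10, which like Ala-AGC-8 rests on few reads, so nothing is read from it either.

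Ala-AGC-5 stood at 11582, 13590 and 14608 RPM in OPC replicates 1 to 3, at 6275 and 6415 RPM in OL replicates 1 and 2, and at 9486 and 9943 RPM in Astro replicates 1 and 2. The groups did not overlap at all, with OPCs highest, astrocytes between and OLs lowest. OPCs averaged 13260 ± 1540 RPM (SD, n = 3) and OLs 6345 ± 99.0 RPM (SD, n = 2), so that the log2 change was -1.06 (SE 0.11), and -1.15 once the isodecoder median is subtracted. This was the 11th largest absolute change of level among the 192. Ala-AGC-7 moved the other way. It was at 2052, 1942 and 2249 RPM in OPC replicates 1 to 3, at 3348 and 3571 RPM in OL replicates 1 and 2, and at 2142 and 2471 RPM in Astro replicates 1 and 2. Both OL libraries were above all others, and the astrocytes overlapped with the OPCs. OPCs averaged 2081 ± 155 RPM (SD, n = 3) and OLs 3460 ± 158 RPM (SD, n = 2), so that the log2 change was 0.74 (SE 0.11), and 0.65 once the same median is subtracted.

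Ala-AGC-1, a minor member, had its highest levels in OPCs. It was at 356, 424 and 448 RPM in OPC replicates 1 to 3, at 256 and 287 RPM in OL replicates 1 and 2, and at 206 and 278 RPM in Astro replicates 1 and 2. OLs and astrocytes overlapped with each other and lay below all OPCs. The log2 change in OLs against OPCs was -0.59 (SE 0.16). Ala-AGC-10 rests on few reads, and was at 7.47, 9.94 and 8.22 RPM in OPC replicates 1 to 3, at 6.29 and 4.98 RPM in OL replicates 1 and 2, and at 10.2 and 11.0 RPM in Astro replicates 1 and 2. These were 10, 15 and 20 reads in OPCs, 10 and 8 in OLs and 24 and 29 in astrocytes, and the log2 change in OLs against OPCs was -0.52 (SE 0.30).

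The most abundant member moved little. Ala-AGC-4 was at 27088, 29673 and 25376 RPM in OPC replicates 1 to 3, at 28028 and 29582 RPM in OL replicates 1 and 2, and at 24519 and 26808 RPM in Astro replicates 1 and 2, and the OPC libraries overlapped with both other groups, while both OL libraries exceeded both astrocyte libraries. Its log2 change in OLs against OPCs was 0.08 (SE 0.080). Ala-AGC-2 was at 7461, 8125 and 8061 RPM in OPC replicates 1 to 3, at 8593 and 8403 RPM in OL replicates 1 and 2, and at 6288 and 7230 RPM in Astro replicates 1 and 2. OLs were thus above and astrocytes below all OPC libraries, by small margins, with a log2 change of 0.11 (SE 0.078) in OLs. Ala-AGC-6 and Ala-AGC-3, which also moved little, changed by 0.24 (SE 0.081) and -0.15 (SE 0.075). Values in every library were given for members without overlap whose absolute log2 change was at least 0.5, and Ala-AGC-10 at -0.52 lay just inside that limit while Ala-AGC-6 at 0.24 lay outside it. Ala-AGC-8 is given no fold, since its 1 to 7 reads lie around the limit of 3.

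In terms of reads, gains of some members offset part of the losses of others in OLs. The 5 members with a higher mean in OLs than in OPCs gained 4640 RPM together, equal to 7.09% of the OPC pool, and the 4 others changed by -7809 RPM together, or -11.9% of that pool. Ala-AGC-5 alone accounted for -6915 RPM of the loss, and the next largest, Ala-AGC-3, for -753 RPM. The gain was spread over Ala-AGC-4 (1426 RPM), Ala-AGC-7 (1379 RPM), Ala-AGC-6 (1219 RPM) and Ala-AGC-2 (616 RPM). The net change of -3168 RPM was -4.84% of the OPC pool. In astrocytes against OPCs the 5 members with a higher mean gained 968 RPM and the 4 others changed by -6551 RPM together, a net of -8.53% of the OPC pool.

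**Figure D2:**
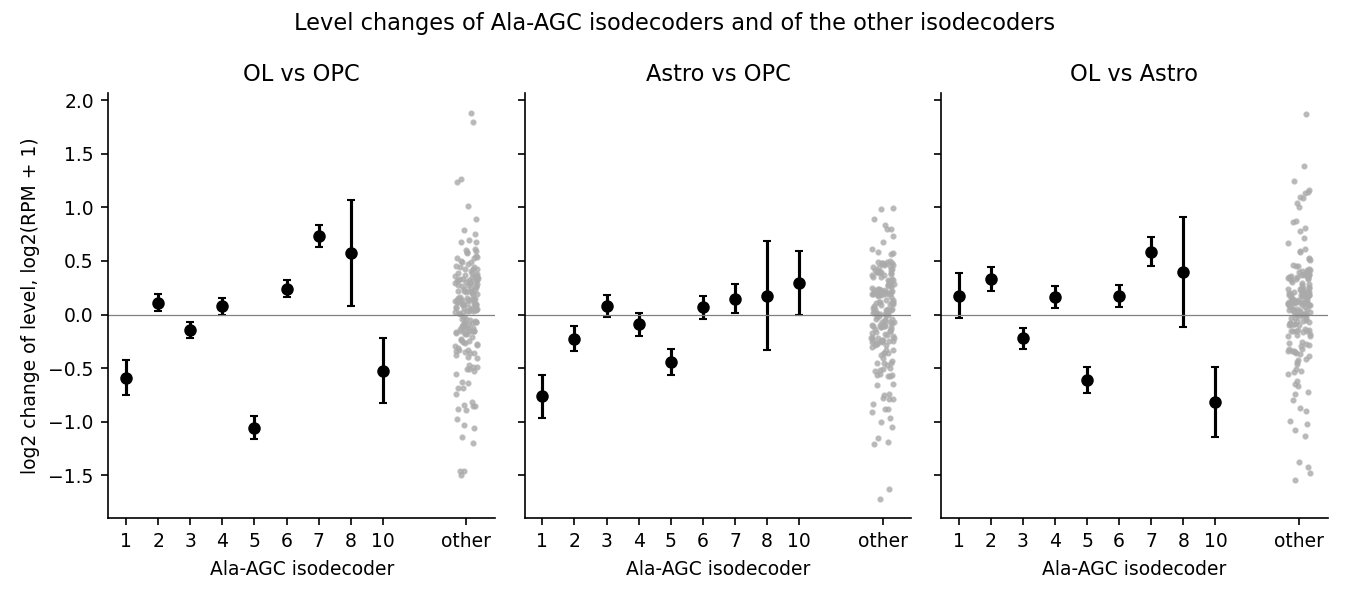
log2 change of level, log2(RPM + 1), of the 9 Ala-AGC isodecoders (black, bars ± SE of the limma fit) and of the other isodecoders tested (grey, 1 point each) in 3 comparisons. In OL vs OPC the members run from -1.06 (Ala-AGC-5) to 0.74 (Ala-AGC-7), in Astro vs OPC from -0.76 (Ala-AGC-1) to 0.29 (Ala-AGC-10).

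The make-up of the pool was then described by the share of each member in the Ala-AGC reads of a library, which does not depend on how libraries were scaled. Ala-AGC-5 made up 18.5%, 19.8% and 22.5% of the pool for the 3 OPC libraries, 10.3% and 10.1% for the OL pair and 16.5% and 16.0% for the astrocyte pair. Its mean share of 20.2% ± 2.03 (SD, n = 3) in OPCs was thus 10.2% ± 0.131 (SD, n = 2) in OLs. Ala-AGC-7 made up 3.27%, 2.83% and 3.46% for the 3 OPC libraries, 5.49% and 5.62% for the OL pair and 3.72% and 3.97% for the astrocyte pair. The mean share of Ala-AGC-4 was 41.8% ± 2.42 for OPCs (SD, n = 3), 46.2% ± 0.448 for OLs (SD, n = 2) and 42.9% ± 0.376 for astrocytes (SD, n = 2). That of Ala-AGC-6 was 10.2% ± 0.142 for OPCs (SD, n = 3), 12.6% ± 0.254 for OLs (SD, n = 2) and 11.7% ± 0.0648 for astrocytes (SD, n = 2). The shares of Ala-AGC-2 and Ala-AGC-3 stayed between 10.9% and 14.2% in every library.

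In OLs against OPCs the shares of all 9 members were without overlap, 5 higher (Ala-AGC-2, 4, 6, 7 and 8) and 4 lower (Ala-AGC-1, 3, 5 and 10), where 55.4% of the 184 shares tested in 42 pools had no overlap. The share of Ala-AGC-8 counts among these only by 4 reads in each of the libraries nearest to each other (0.00392% against 0.00386%), with Wilson intervals that overlap, so 8 of 9 is the count without it. By limma 0 of the 9 shares passed an adjusted p of 0.01, where 2.17% of all shares passed. At an unadjusted p under 0.05 there were 6 of 9, where 31% of all shares were. Nothing is read from these counts either, for the same reason. The log2 change of the share was -0.99 (SE 0.098) for Ala-AGC-5, 0.81 (SE 0.10) for Ala-AGC-7, 0.31 (SE 0.032) for Ala-AGC-6 and -0.52 (SE 0.10) for Ala-AGC-1. The shares of a library are parts of 1 total and are not independent of each other.

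**Figure D3:**
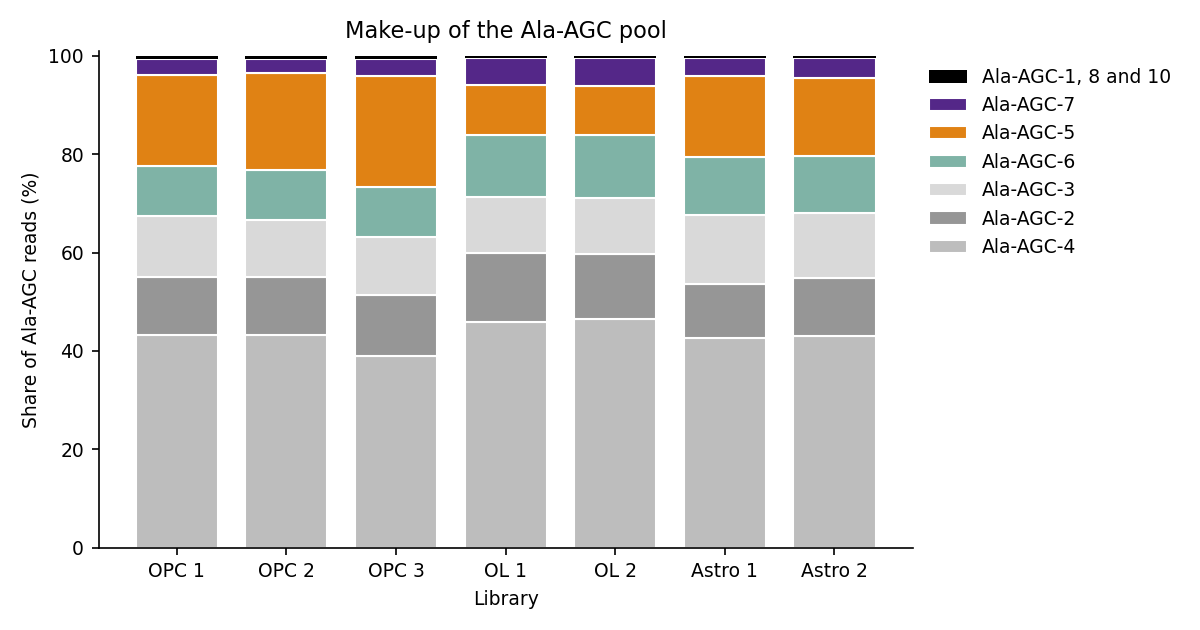
Share of each isodecoder in the Ala-AGC reads (percent) of each of the 7 libraries, as stacked bars that sum to 100. The segment of Ala-AGC-5 is 18.5% to 22.5% in OPCs, 10.1% to 10.3% in OLs and 16.0% to 16.5% in astrocytes, and that of Ala-AGC-7 is widest in OLs.

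The ratio of Ala-AGC-5 to Ala-AGC-7 puts the opposite movements into a single number per library. It was 5.64, 6.998 and 6.50 for the 3 OPC libraries, 1.87 and 1.80 for the OL pair and 4.43 and 4.02 for the astrocyte pair. The OL ratios were below all others, and the astrocyte ratios lay between. Both members were picked for their moves in these OL libraries, so the low OL ratios follow from that choice and nothing is read from them. For the ratio of Ala-AGC-5 to Ala-AGC-4 the means were 0.487 ± 0.0782 for OPCs (SD, n = 3), 0.220 ± 0.00497 for OLs (SD, n = 2) and 0.379 ± 0.0113 for astrocytes (SD, n = 2).

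A summary of the whole make-up is the percentage of the pool that would have to change members to turn the mean shares of a group into those of another. For Ala-AGC it was 10.9 points between OLs and OPCs, the 5th largest of 42 pools, whose median was 2.49 points. Between astrocytes and OPCs it was 5.00 points (rank 13, median 2.43), and between OLs and astrocytes 8.48 points (rank 6, median 3.49). Because the pool was chosen for members that moved in OLs, its ranks are a description and nothing is read from them. Replicate libraries of a group differed by 1.16 points in OLs, 1.58 points in astrocytes and 1.44 to 4.93 points in OPCs, where OPC replicate 3 stood apart from the other 2. Single OL libraries differed from single OPC libraries by 9.41 to 13.04 points, from single astrocyte libraries by 7.61 to 9.38 points. Single astrocyte libraries differed from OPC libraries by 2.94 to 7.79 points, a range that overlaps with that of the OPC replicates among themselves. No replicate pair agreed within counting error (chi-square per degree of freedom 5.19 to 88.9), so the spread between libraries is wider than the depth alone would give.

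**Figure D4:**
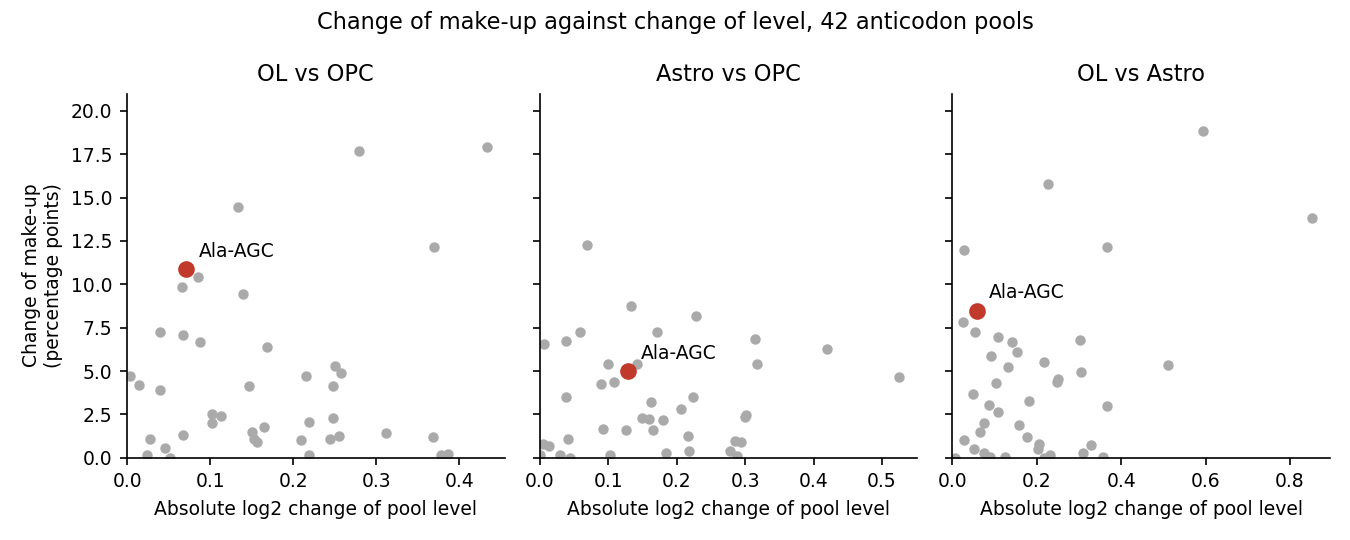
Change of make-up of each of 42 anticodon pools (percentage points) against the absolute log2 change of the pool's level, in 3 comparisons, with Ala-AGC in red. Ala-AGC combines a pool change of 0.07 in size with a make-up change of 10.9 points in OL vs OPC, and 0.13 with 5.00 points in Astro vs OPC. The pool was chosen for this combination in OL vs OPC, so its place there is a description.

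Astrocytes were compared with OPCs to ask whether the members also change in the other differentiated cell type. The fit shares the OPC libraries with the comparison that chose the pool. Its values therefore depend in part on that choice, and nothing is read from its p-values or counts. Of the 9 members 0 passed a limma adjusted p of 0.01, as did 0% of all 192 isodecoders. At an unadjusted p under 0.05 there were 2 of 9, beside 20.8% of all isodecoders. The lowest values were those of Ala-AGC-1, at -0.76 (SE 0.20, limma adjusted p 0.0559), and Ala-AGC-5, at -0.44 (SE 0.12, limma adjusted p 0.0665). Ala-AGC-7 changed by 0.15 (SE 0.14, limma adjusted p 0.511), and its astrocyte libraries overlapped with the OPC libraries. Of the 9 members 5 did not overlap, 2 higher (Ala-AGC-3 and 10) and 3 lower (Ala-AGC-1, 2 and 5), against 39.6% of all isodecoders. Of the 9 shares 0 passed, as did 0% of all 184. At an unadjusted limma p under 0.05 there were 5 of 9, beside 23.4% of all shares. The lowest limma adjusted p of a share was 0.0602, for Ala-AGC-6 at 0.20 (SE 0.030), and 7 of 9 shares did not overlap against 43.5% of all. The share of Ala-AGC-5 changed by -0.31 (SE 0.099, limma adjusted p 0.171).

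A direct comparison of OLs and astrocytes, fitted on all 7 libraries, also gives the difference between the changes of these cell types from OPCs. The OL libraries are those by which the pool was chosen, so the values of single members are given here as a description, without p-values. Ala-AGC-5 was lower in OLs (6345 ± 99.0 RPM, SD, n = 2) than in astrocytes (9715 ± 323 RPM, SD, n = 2). The log2 change was -0.61 (SE 0.12), and -0.73 once the median of 0.11 over all isodecoders is subtracted. By the limma threshold 1 of 9 members was called, Ala-AGC-5, where 6.25% of all isodecoders were, and nothing is read from that count. The call was lost in 7 of 17 alternatives, namely with no filter on low values, without the variance trend, without OPC replicate 2 and without any of the OL or astrocyte libraries. For Ala-AGC-7 the astrocyte mean was 2307 ± 232 RPM (SD, n = 2), and OLs were higher by 0.59 on the log2 scale (SE 0.13). It was called as well without OPC replicate 3, which made the count 2. Of the 9 members 7 did not overlap, 4 higher and 3 lower in OLs, against 60.4% of all isodecoders.

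For shares in OLs against astrocytes 0 of 9 passed a limma adjusted p of 0.01, where 3.8% of all 184 passed. At an unadjusted p under 0.05 there were 6 of 9, where 27.2% of all shares were. The share of Ala-AGC-5 differed by -0.67 (SE 0.097) and that of Ala-AGC-7 by 0.53 (SE 0.10). Shares of 7 of the 9 did not overlap, against 58.7% of all shares.

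The other alanine isodecoders, 14 of Ala-UGC and Ala-CGC with a mean of at least 1 RPM, were taken as a list beside the members. In OLs against OPCs 0 of 14 passed a limma adjusted p of 0.01, beside 5.73% of all isodecoders. At an unadjusted limma p under 0.05 there were 2 of 14, beside 32.8%, and 4 of 14 did not overlap, beside 53.1%. Their log2 changes ran from -0.56 to 1.26, with a median of 0.04. Within Ala-CGC, members without overlap also moved in opposite directions, Ala-CGC-2 by 0.36 and Ala-CGC-1 by -0.25, while the pool changed by 0.08. The make-up of Ala-CGC changed by 10.4 points and that of Ala-UGC by 3.94, beside 10.9 for Ala-AGC. In astrocytes against OPCs 0 of 14 passed, as did 0% of all isodecoders, with a median of -0.38. At an unadjusted limma p under 0.05 there were 3 of 14, beside 20.8% of all isodecoders. In OLs against astrocytes 2 were higher, Ala-UGC-6 by 1.14 (limma adjusted p 0.0021) and Ala-UGC-7 by 1.39 (limma adjusted p 0.0076). None was lower, the median was 0.53, and 6.25% of all isodecoders passed. The make-up of Ala-CGC differed by 15.8 points between these cell types, beside 8.48 for Ala-AGC. The medians of all isodecoders in the same comparisons were 0.09, 0.01 and 0.11.

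The other list held 8 pools whose anticodon starts with adenosine, the tRNAs for alanine, arginine, isoleucine, leucine, proline, serine, threonine and valine, in which that base is known to be deaminated to inosine. The tables hold 2 further pools that start with adenosine and are not on the list, Gly-ACC at 25.2 to 88.7 RPM, with a log2 change of 0.54 in OLs against OPCs and libraries that overlapped, and Cys-ACA, listed at 0 in every library. None of the 8 passed a limma adjusted p of 0.01 in any comparison, as did none of all 52 pools. At an unadjusted limma p under 0.05 there were 2 of 8 in OLs against OPCs, beside 25% of all 52. In astrocytes against OPCs there were 1 of 8, beside 11.5%, and in OLs against astrocytes 0 of 8, beside 15.4%. In OLs against OPCs their median log2 change was 0.21, beside 0.12 for all pools. Ile-AAU, Thr-AGU, Leu-AAG, Arg-ACG and Ser-AGA changed by 0.38, 0.37, 0.25, 0.25 and 0.17, and Ala-AGC, Val-AAC and Pro-AGG by -0.07, -0.28 and -0.29. In OPCs Ala-AGC had the highest level of the 8, ahead of Arg-ACG at 25874 ± 3041 RPM (SD, n = 3).

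The isodecoders outside the pool whose levels followed Ala-AGC-5 most closely over the 7 libraries were Lys-UUU-2 (Pearson r 0.974), Val-AAC-2 (0.960) and Lys-UUU-3 (0.939), of 183 compared. They are all lower in OLs, by log2 changes of -1.46, -1.03 and -1.20 against OPCs. Those closest to Ala-AGC-7 were Tyr-GUA-4 (Pearson r 0.957), Gly-UCC-1 (0.933) and SeC-UCA-1 (0.925), with log2 changes of 0.37, 0.13 and 0.61. The correlation of Ala-AGC-5 with Ala-AGC-7 themselves was -0.895. These correlations describe 7 libraries in 3 groups with a common scaling, and the best of many pairs were picked.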

How the data were processed

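The 7 QuantM-seq libraries (3 OPC, 2 OL, 2 Astro) were grouped by the deposited labels. The authors removed adapters with cutadapt, mapped reads with bowtie2 to high-confidence mature GtRNAdb tRNAs of mm10 with identical genes collapsed, and counted them with featureCounts at a mapping quality limit. The values deposited by the authors are RPM, scaled to all cytosolic and mitochondrial tRNA reads and listed for 217 cytosolic isodecoders and 52 anticodons. The authors' deposited DESeq2 tables hold their own OPC and OL comparison and were not used. In every library 100% of the values were multiples of what 1 read is worth (tolerance 0.01 read), and this gave the depth (1339021 to 2627351 reads). The reads recovered in this way served for the read numbers, the intervals of shares and the chi-square values. The comparisons of groups used the deposited RPM, and no group test on counts was run.

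log2(RPM + 1) was compared with limma 3.58.1 in R 4.3.3 over 52 anticodons and over the 192 isodecoders that averaged 1 RPM or more, with a variance trend. Shares, log2(RPM + 1) of an isodecoder minus that of its pool, were compared for 184 isodecoders in 42 pools without a trend. Tests were two-sided, with Benjamini-Hochberg adjustment over all tRNAs tested and a threshold of 0.01. The added 1 makes changes of rare tRNAs look smaller than they are. Comparisons with OPCs used those groups only, and OL vs Astro used all 7 libraries. Nothing in the labels says that replicates came from separate animals, so p-values measure the spread between these cultures. Values in every library were given for the 3 highest members, for members without overlap whose absolute log2 change in OL vs OPC was at least 0.5, and for members past the threshold in an astrocyte comparison. Likeness named the 3 isodecoders with the highest Pearson r. The pool, its members, the lists and the naming rule were chosen with earlier results of these data known. The fits of isodecoder levels were tested on simulated data, while those of pools and shares and the replicate block were not. Sequences were aligned with Biopython 1.88. Alternatives covered the pseudocount, the filter, 2 other scalings, the trend, the threshold, which libraries were fitted, a replicate block and leaving out single libraries.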

Additional observations from a re-analysis of the deposited data

Results flagged for a closer look

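These values compare OLs with astrocytes, and no p-values of them are given, because the pool was chosen by values of the same OL libraries. The level of Ala-AGC-5 was below all OPC libraries in both cell types and lower in OLs than in astrocytes by a log2 change of -0.61. The limma call of that difference was lost in 7 of 17 alternatives, and nothing is read from it.

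For 3 members both OL libraries lay on one side of all OPC libraries and both astrocyte libraries on the other, a pattern that 8 of all 192 isodecoders tested (4.17%) showed, these 3 included. The level of Ala-AGC-2 was above OPCs in OLs and below them in astrocytes, and the difference between OLs and astrocytes was 0.33. Ala-AGC-3 went the other way, with -0.22, as did Ala-AGC-10 with -0.82, which rests on 8 to 29 reads per library. The shares of the same 3 members in the pool were placed likewise and differed by 0.28, -0.28 and -0.87, where 11 of all 184 shares (5.98%) showed the pattern. None of these differences passed the limma threshold of 0.01, and nothing is read from that, for the reason given. Groups of 2 and 3 libraries are too small for a check of single libraries as outliers.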

How the results depend on the processing

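For single members (48 results), 699 of 746 alternative values kept their direction and their side of the threshold, 4 changed sign and the others crossed the threshold. The alternatives are not independent of each other. Against OPCs the replicate block gave the estimates found without OPC replicate 3, and the threshold of 0.05 refits nothing. The fall of Ala-AGC-5 in OLs against OPCs stayed between -1.15 and -0.98 and the rise of Ala-AGC-7 between 0.67 and 0.79. The count of members called by level was 2 in OLs against OPCs, 0 in astrocytes against OPCs and 1 in OLs against astrocytes. With no filter on low values or without the variance trend it was 0 in both comparisons of OLs. A minimum of 100 RPM or a threshold of 0.05 gave 2 in OLs against astrocytes, where Ala-AGC-7 passed as well. Median-of-ratios scaling gave 1 in astrocytes against OPCs, Ala-AGC-1. Leaving out 1 library gave 0 to 2 in OLs against OPCs, 0 to 0 in astrocytes against OPCs and 0 to 2 in OLs against astrocytes. In OLs against OPCs the count was 1 without OPC replicate 1 or 2 and 0 without either OL library, which leaves that arm with 1 sample. The count of called shares was 0 in all 3 comparisons. In OLs against OPCs it was 2 with a pseudocount of 10, 1 with a variance trend, and 3 with a minimum of 100 RPM, a threshold of 0.05 or all 7 libraries in the fit. In OLs against astrocytes it was 1 with a minimum of 100 RPM or a variance trend, 5 at a threshold of 0.05, and 0 to 1 when each library was left out. The pool level in OLs against astrocytes, 0.06 as deposited, was -0.0047 when rescaled to the listed cytosolic tRNAs and -0.036 under median-of-ratios scaling, and Ala-AGC as a percent of all listed cytosolic tRNA differed by -0.488 points between astrocytes and OPCs. The difference in percent of alanine tRNA between these ranged from -0.243 to 1.04 points when each library was left out. The causes were not tested.

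OLs were made from OPC replicates, but which library came from which was not given, so the numbers were not taken to pair the samples. A replicate block on the numbers gave 1 called level in astrocytes against OPCs, Ala-AGC-1, and otherwise changed no count of called members. Only OPCs have a replicate 3, so the block fits that library exactly and takes nothing from it. Against OPCs it leaves too little residual spread for its p-values to be read, and nothing is read from its calls. Same-numbered libraries deviated together with correlations of -0.294 to 0.343. Under the block the share of Ala-AGC-4 in astrocytes against OPCs was -0.012, and it ranged from -0.012 to 0.062 when each library was left out. Ala-AGC-1 in OLs against astrocytes ranged from -0.037 to 0.390 in level and from -0.039 to 0.277 in share. Depth limits Ala-AGC-8 and Ala-AGC-10, with 1 to 7 and 8 to 29 reads per library.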
